A study of Mus musculus with 162 samples.

Results

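The mouse brain that is left once the olfactory bulb (OB), cerebellum (CBL) and brainstem (BST) have been cut away holds the telencephalon and diencephalon, and its messenger RNA is set here against that of the 3 dissected regions. In this study of short fasts, adult male C57BL/6J mice lost access to food for 0, 2, 8, 12, 18 or 22 h, with 3 mice at each time, and 9 organs were taken from the same 18 mice early in the dark phase. Poly(A) RNA of each organ was sequenced as a stranded library and counted per gene. No mouse carried a transgene or received an agent, so fasting time and organ are the only stated differences between samples. The libraries were picked by the organ in their titles: 16 of the 18 libraries of the remaining brain (BRN) and all 18 of OB, of CBL and of BST. The BRN libraries of 8 h replicate 3 and 18 h replicate 1, with 130701 and 279848 counts, were not among the 16. All genes that passed a filter on low counts were used, 18496 of the 53686 in the table, and organs were compared at the same fasting time. The 16 BRN libraries held 3045845 to 12108290 counts (median 8113246), the OB libraries 8224940 to 17704828, the CBL libraries 6487419 to 22071004 and the BST libraries 6998492 to 11776354.

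What remains after these cuts is a mixture of cortex, hippocampus, striatum, thalamus and hypothalamus. Cortical pyramidal neurons send excitatory output and carry identity factors such as Neurod6, while the medium spiny neurons of the striatum are inhibitory and answer dopamine through the D1 and D2 receptors. The hypothalamus adds small groups of neurons that make peptides for water balance, feeding and arousal, such as vasopressin, melanin-concentrating hormone and orexin.

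Some libraries stood apart. BRN 18 h replicate 2 held the fewest counts of the 16, 3045845, and counts in 13692 genes, where the others reached up to 23266. Its median correlation with the other BRN libraries over log-scaled genes was 0.898, and 5068 of the 18496 genes tested had no count in it. BRN 12 h replicate 2 came next, with 3152641 counts and a median correlation of 0.924. Every BRN library nevertheless lay nearest to the BRN mean of the 4 organs. Correlations between libraries of the same organ ran from 0.877 to 0.987 in BRN, while the lowest were 0.975 in OB, 0.987 in CBL and 0.989 in BST. BST 0 h replicate 2 carried a summed level of 927 CPM (counts scaled to library size after TMM normalisation, called normalised CPM throughout) of 15 cerebellar neuron genes, above the 291 to 695 of the other BST libraries. Mitochondrial genes took 3.49 to 12.2% of BRN counts and at most 6.66% in a library of the regions. By their library numbers the BRN libraries fell into 2 series, a smaller one of 5, with all 3 of 0 h among these, and a larger one of 11. All libraries of OB, CBL and BST came from 2 other series, so library series and organ cannot be told apart in any comparison of BRN with a region. BRN was loaded on lanes 1 to 5, OB on lanes 3 and 4, CBL on lane 3 and BST on lane 4.

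Both marker genes were higher in BRN than in each region. Neurod6, a basic helix-loop-helix factor of cortical and hippocampal excitatory neurons (chr6:55677822-55681263, minus strand, GRCm38), ranged from 25.8 to 54.7 (median 41.9) normalised CPM in BRN. It ranged from 1.2 to 4.29 (median 2.23) in OB, 6.59 to 12.1 (median 10) in CBL and 4.99 to 9.1 (median 6.83) in BST. Every BRN library was above every library of the regions, and OB was the lowest of the 4 organs. The log2 fold change (log2FC) against OB, averaged over the fasting times, was 4.25 (SE 0.107, edgeR adjusted p 6.11e-42), with BRN higher in 16 of 16 mice. Against CBL it was 2.06 (SE 0.0939, edgeR adjusted p 7.06e-29), higher in 16 of 16 mice. Against BST it was 2.50 (SE 0.0962, edgeR adjusted p 2.1e-32), again higher in 16 of 16 mice. In bulk tissue, fewer cells of a type and less RNA per cell cannot be told apart, so these values are levels per total RNA of each dissection.

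Drd1, the D1 dopamine receptor of the striatal neurons that form the direct pathway (chr13:54051183-54055705, minus strand), ranged from 25.8 to 64.8 (median 37.3) normalised CPM in BRN. It ranged from 1.74 to 3.66 (median 2.59) in OB, 0 to 0.915 (median 0.333) in CBL and 0.24 to 1.72 (median 0.814) in BST. The BRN libraries did not overlap with any region, and CBL held the least. The log2FC was 3.94 against OB (SE 0.129, edgeR adjusted p 6.82e-36, higher in 16 of 16 mice). It was 6.95 against CBL (SE 0.179, edgeR adjusted p 9.47e-42, 16 of 16 mice) and 5.50 against BST (SE 0.154, edgeR adjusted p 1.49e-39, 16 of 16 mice). Within single fasting times the Drd1 difference from OB lay between a log2FC of 3.52 and 4.54, and that of Neurod6 between 3.96 and 4.51. The test for a change of the difference from OB with fasting time gave an edgeR adjusted p of 0.512 for Neurod6 (log2FC 4.25, 16 of 16 mice) and of 0.408 for Drd1 (log2FC 3.94, 16 of 16 mice), and neither passed.

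A gene was called when its Benjamini-Hochberg adjusted p in edgeR was under 0.05 and its log2FC was above 1 or below -1. Against OB, 2369 genes (12.8%) were higher and 2254 (12.2%) lower in BRN. Against CBL, 3113 (16.8%) were higher and 2703 (14.6%) lower. Against BST, 2410 (13%) were higher and 2532 (13.7%) lower. The median log2FC of all genes tested was -0.023, 0 and -0.029 for the 3 comparisons, which share the BRN libraries. Genes called higher in BRN against all 3 regions are named BRN-high here and numbered 937 (5.07%). Genes called lower against all 3, the BRN-low genes, numbered 578 (3.12%). All 16 BRN libraries were above all 54 region libraries for 220 of the BRN-high genes, and all 16 were below for 65 of the BRN-low genes. Without BRN 18 h replicate 2, the other 15 were above for 259 and below for 68. Gene length was taken as the bases covered by any exon of a gene. Its median was 2113 bases for BRN-high and 2966 for BRN-low genes, against 3856 for all genes. With offsets for gene length 810 genes were BRN-high and 611 BRN-low, of which 741 and 485 were among the 937 and 578, and the part of length in these calls was not tested further. Predicted or numbered gene names made up 345 of the 937 and 278 of the 578, against 3768 of all 18496.

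The BRN-low count depended on the 18 h BRN libraries. In BRN 18 h replicate 2, 455 of the 578 BRN-low genes had no count. Leaving that library out of the fit gave 867 BRN-high and 544 BRN-low genes, of which 826 and 493 were among the 937 and 578. Leaving out its only companion at that time, BRN 18 h replicate 3, raised the BRN-low count to 1549 and left 775 BRN-high genes. That fit also moved the genes lower in BRN to 3588 against OB and 3846 against BST. In 1291 genes every BRN library of at least 1 fasting time had no count, 1032 of them at 18 h, and the average over times then has no finite estimate. Of these genes 270 were BRN-low, while 36 with a fitted log2FC over 1 against every region could not be called higher.

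**Figure D1:**
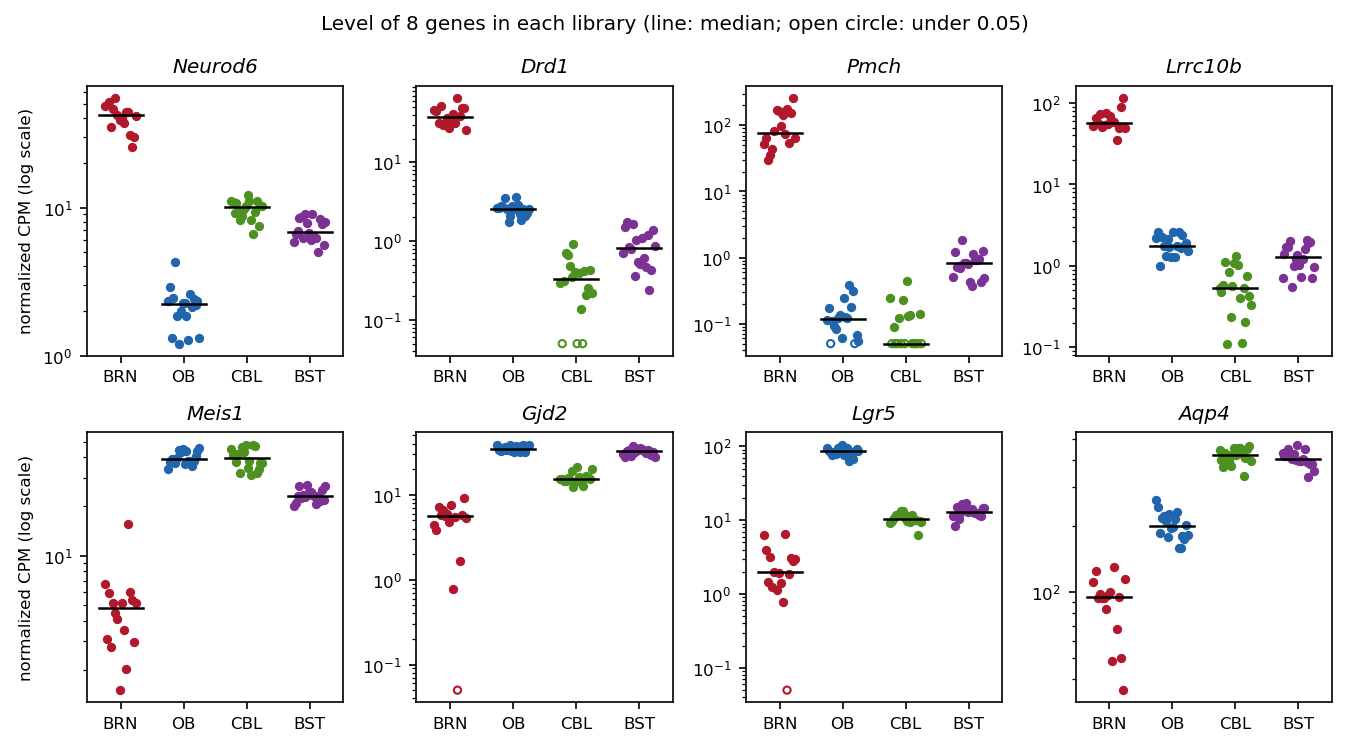
Normalised CPM (log axis) of 8 genes in each library of BRN, OB, CBL and BST, with 1 point per library, a line at the median and open circles for values under 0.05. Neurod6, Drd1, Pmch and Lrrc10b were higher in all 16 BRN libraries than in all 54 others, whereas Meis1, Gjd2, Lgr5 and Aqp4 were lower in BRN.

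Among BRN-high genes with a mean of at least 5 CPM in BRN, those with the largest differences included 4 precursors of hypothalamic peptides. Less abundant pancreatic genes such as Cpa1 and Cela3b had a larger smallest fitted log2FC than Pmch, at 8.12 and 7.77, with no count in some regions. Pmch encodes the precursor of melanin-concentrating hormone, made in the lateral hypothalamus, and ranged from 29.6 to 257 (median 77.8) normalised CPM in BRN. Its levels were 0 to 0.384 (median 0.117) in OB, 0 to 0.439 (median 0) in CBL and 0.368 to 1.83 (median 0.816) in BST. The lowest BRN library was above the highest of any region, and BST came second. The log2FC was 6.86 against BST, and the ratio of pooled levels was 124.1-fold (95% interval 105.6 to 146.8). Avp, the vasopressin precursor, ranged from 8.73 to 67.2 (median 27.6) in BRN. Over all 18 libraries of a region it had 11 counts in OB, 2 in CBL and 4 in BST. Its pooled ratio was 709.5-fold (95% interval 396.5 to 1420) over OB and 3090-fold (95% interval 856 to 25500) over CBL. Oxt, the oxytocin precursor that neighbours Avp on chromosome 2, ranged from 5.15 to 46.7 (median 26.5) in BRN and had 11 counts in OB, 4 in CBL and 9 in BST. Its pooled ratio was 562.6-fold (95% interval 314.4 to 1130) over OB and 509.7-fold (95% interval 268.5 to 1110) over BST. Hcrt, the orexin precursor, ranged from 1.17 to 33.2 (median 13.5) in BRN, and its 10 to 13 counts per region gave a pooled ratio of 257-fold (95% interval 139.7 to 535.9) over BST. For all 4 peptides BRN was higher in 16 of 16 mice against every region. The spread among BRN libraries was wide, with the highest Hcrt and Pmch libraries far above the lowest.

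The promoters of these 4 genes are printed because the genes were the most BRN-restricted named peptides and were higher together. The sequences are RefSeq promoters of GRCm38.p6, from 250 bases before to 50 after the start, read 5′ to 3′ on the gene's strand. They lie at chr2:130582539-130582838 (minus, Avp), chr2:130575919-130576218 (plus, Oxt), chr11:100762882-100763181 (minus, Hcrt) and chr10:88090822-88091121 (plus, Pmch). Capitals mark the TATA box core TATAAA and the E-box form CAGATG, searched on both strands (TTTATA and CATCTG).
Avp: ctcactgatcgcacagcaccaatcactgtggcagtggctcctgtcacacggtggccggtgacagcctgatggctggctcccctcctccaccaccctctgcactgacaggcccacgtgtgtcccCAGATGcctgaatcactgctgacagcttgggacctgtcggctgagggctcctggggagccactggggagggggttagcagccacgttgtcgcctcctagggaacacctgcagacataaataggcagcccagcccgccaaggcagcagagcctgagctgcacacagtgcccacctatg
Oxt: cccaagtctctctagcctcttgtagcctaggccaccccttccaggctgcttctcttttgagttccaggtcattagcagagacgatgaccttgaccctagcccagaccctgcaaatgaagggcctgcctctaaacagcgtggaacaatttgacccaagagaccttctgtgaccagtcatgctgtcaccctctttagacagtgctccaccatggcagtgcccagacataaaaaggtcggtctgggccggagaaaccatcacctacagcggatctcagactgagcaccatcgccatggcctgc
Hcrt: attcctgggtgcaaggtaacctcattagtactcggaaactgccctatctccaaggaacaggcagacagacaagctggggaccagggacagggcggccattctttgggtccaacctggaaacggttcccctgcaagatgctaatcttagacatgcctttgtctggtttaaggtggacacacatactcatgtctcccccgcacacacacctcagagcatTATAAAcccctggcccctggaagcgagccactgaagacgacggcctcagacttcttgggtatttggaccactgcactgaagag
Pmch: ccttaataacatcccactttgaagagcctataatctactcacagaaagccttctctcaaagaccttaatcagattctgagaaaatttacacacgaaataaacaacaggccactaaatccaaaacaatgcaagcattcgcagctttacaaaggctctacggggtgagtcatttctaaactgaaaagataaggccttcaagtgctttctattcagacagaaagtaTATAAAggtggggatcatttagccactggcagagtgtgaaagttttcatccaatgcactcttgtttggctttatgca
TATAAA stood in the Hcrt and Pmch windows, CAGATG in the Avp window and neither in the Oxt window. Of all 32851 promoters at hand, 13.6% held TATAAA and 17.2% CAGATG. Among the 22 promoters matched to the hypothalamic list 27.3% held TATAAA and 36.4% CAGATG. The shares were 21.1 and 26.3% for the cortical pyramidal list and 5.56 and 16.7% for the striatal list. For the BRN-high genes they were 11.3 and 14.4%, and for the genes tested 7.96 and 12.6%.

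Lhx6, a homeobox factor of interneurons born in the medial ganglionic eminence, was among the other top genes with a mean of at least 5 CPM. It ranged from 3.12 to 23.2 (median 16.7) normalised CPM in BRN, with a log2FC of 5.27 against OB, 6.36 against CBL and 5.80 against BST. Its lowest BRN value came from 18 h replicate 2, and without it the range was 10.1 to 23.2 (median 16.9). Lrrc10b, a leucine-rich repeat gene, ranged from 35.1 to 114.6 (median 57.3) in BRN, and from 0.986 to 2.64 (median 1.75) in OB. Both were above every region library. Spink8, a protease inhibitor gene used as a marker of hippocampal pyramidal neurons, ranged from 2.27 to 13.5 (median 7.28) in BRN, with a pooled ratio of 87.8-fold (95% interval 54.1 to 153.7) over CBL and 1 count in OB. Slc26a4, the anion exchanger pendrin, ranged from 3.86 to 27.7 (median 6.5), with a log2FC of 5.54 against OB. Over CBL, with 8 counts in all its libraries, the pooled ratio was 187.9-fold (95% interval 95.3 to 435.1), and over BST, with 4 counts, it was 351.4-fold (95% interval 137.2 to 1290). The highest Slc26a4 value came from BRN 18 h replicate 2, and without it the range was 3.86 to 10.2 (median 6.37). Ovol2, a zinc finger factor of epithelia, ranged from 2.69 to 10 (median 4.45) with a pooled ratio of 150.5-fold (95% interval 76.4 to 348.7) over OB. The remaining pair, Cd4 and Ctrb1, are genes of T lymphocytes and of the exocrine pancreas and are given with their lists.

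Of 18 cortical pyramidal neuron genes, 8 were BRN-high. Against OB 11 were higher and 1 lower, against CBL 15 were higher and 2 lower, and against BST 14 were higher and the other 4 were not called. The list's median log2FC was 1.48, 3.81 and 2.93, and its summed level ranged from 4960 to 6870 (median 6020) CPM in BRN and 2420 to 2820 (median 2640) in OB. Camk2a, the alpha subunit of a calcium-dependent kinase of excitatory synapses, ranged from 1900 to 2870 (median 2310) in BRN, with a log2FC of 1.41 against OB, 4.34 against CBL and 4.42 against BST. Nrgn, the calmodulin-binding protein neurogranin, ranged from 902.5 to 1930 (median 1320), with a log2FC of 2.92 against OB, 5.03 against CBL and 6.42 against BST. Tbr1, a T-box factor of deep-layer neurons, ranged from 41 to 92.3 (median 68.9), with a log2FC of 2.02 against OB, 6.50 against CBL and 7.54 against BST. OB thus held more of these genes than CBL or BST did, and the BRN libraries stayed above it for all 3. The exceptions were Bcl11b, a factor of deep-layer and striatal neurons, with 19.1 to 85.1 (median 47.3) in BRN against 91 to 123.7 (median 105.8) in OB, and Neurod2 and Nptx1, which were lower than in CBL. Neurod2, a relative of Neurod6, ranged from 30.3 to 76.1 (median 44.6) in BRN and had a log2FC of 3.45 against OB, -1.13 against CBL and 2.40 against BST. Neurod1, of the same family, was lower than in CBL at a log2FC of -5.73, and Neurod4 did not pass the filter.

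Hippocampal neuron genes were divided. Of 13 tested, 8 were higher than in OB, 8 higher and 3 lower than in CBL, and 7 higher and 1 lower than in BST, with medians of 1.77, 1.44 and 1.08. C1ql2, a synaptic organiser of dentate granule cells, ranged from 7.61 to 20.8 (median 13.5) normalised CPM in BRN, with a log2FC of 4.26 against OB, 4.62 against CBL and 1.33 against BST. Wfs1, an endoplasmic reticulum protein abundant in CA1, ranged from 118.4 to 222.2 (median 157.7), with a log2FC of 1.66 against OB, 2.09 against CBL and 1.88 against BST. Prox1, the homeobox factor of dentate granule cells, was lower than in CBL (-1.49) and BST (-1.05), and with the smaller series alone these were -0.98 and -0.58, both short of -1. The BST call for Prox1 also ended in 3 other alternatives, with length offsets at -0.83, without replicate 1 of every organ at -0.98 and without BRN 18 h replicate 3 at -1.

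Striatal medium spiny neuron genes were higher in BRN in most cases. Of 19 tested, 16 were higher than OB and 15 than CBL, the others not being called, and against BST 14 were higher and 1 lower, with medians of 3.43, 2.28 and 2. There were 12 BRN-high members. Drd2, the receptor of the indirect pathway, ranged from 18 to 59.1 (median 46.5) normalised CPM in BRN, with a log2FC of 3.71 against OB, 3.59 against CBL and 1.59 against BST. Adora2a, the adenosine receptor that accompanies it, ranged from 33.1 to 68.8 (median 49.4), with a log2FC of 2.64 against OB, 4.75 against CBL and 4.44 against BST. For Adora2a every BRN library was above every region library. Pdyn and Tac1, the dynorphin and substance P precursors of direct pathway neurons, ranged from 30.9 to 54.3 (median 40.3) and 49.8 to 133.6 (median 83.1). Rgs9, which speeds the shutdown of G proteins, ranged from 69.9 to 152.3 (median 98.1), with a log2FC of 3.52 against OB, 5.02 against CBL and 3.55 against BST. Scn4b, a sodium channel beta subunit, was the member lower than in BST, with 129.8 to 358.2 (median 192.2) in BRN and 409.2 to 652.3 (median 593.9) in BST.

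The signalling chain from dopamine receptors to cyclic AMP followed the same direction. Of 27 members tested, 14 were higher than in OB and the others were not called, 18 were higher and 1 lower than in CBL, and 16 were higher than in BST, with medians of 1.15, 1.99 and 1.59. Gng7, the gamma subunit of the striatal G protein, ranged from 216.4 to 351.6 (median 266.4) normalised CPM in BRN, with a log2FC of 3.08 against OB, 3.21 against CBL and 2.51 against BST. Ptpn5, the striatum-enriched tyrosine phosphatase, ranged from 265 to 496.8 (median 348.7), with a log2FC of 2.54 against OB, 3.62 against CBL and 1.68 against BST. Hpca, the calcium sensor hippocalcin, ranged from 650.3 to 1150 (median 818), with a log2FC of 3.21 against OB, 3.45 against CBL and 2.91 against BST. These 3 were above every region library. Ppp1r1b, the phosphatase inhibitor DARPP-32, ranged from 270.3 to 502.7 (median 339.2) and was higher than OB (3.43) and BST (2.86), whereas the log2FC of 0.91 against CBL stayed under the threshold.

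Interneuron genes split by region. Against OB, 6 of 23 were higher and 13 lower, against CBL 14 were higher and 3 lower, and against BST 11 were higher and 1 lower. The medians were -1.37, 3.79 and 0.54, and the CBL median was 3.25 with Dlx5 and Dlx6, which had no count in CBL, at their lower bounds. Gad1, which makes GABA, ranged from 249.2 to 453.8 (median 348.4) normalised CPM in BRN and from 1810 to 2290 (median 2050) in OB, where GABA neurons abound, a log2FC of -2.55. Dlx1, a homeobox factor of such neurons, ranged from 10.1 to 22.6 (median 15.2) in BRN and from 322.7 to 395.5 (median 346.9) in OB. Sst, the somatostatin precursor, went the other way and ranged from 142.1 to 359.8 in BRN, with a log2FC of 4.32 against OB, 3.86 against CBL and 1.43 against BST. Lhx8, a factor of forebrain cholinergic and GABA neurons, ranged from 0.252 to 6.25 (median 2.45) in BRN, with the highest in 18 h replicate 2 and 3.63 the next, and reached at most 0.102 in any region library. Pvalb, the calcium buffer parvalbumin, was higher than in OB (4.59) and lower than in CBL (-2.55).

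Forebrain patterning factors marked BRN off from CBL and BST more than from OB. Of 26, 14 were higher and 6 lower than in OB, 20 higher and 3 lower than in CBL, and 20 higher and 1 lower than in BST. The medians were 1.63, 5.09 and 5.27, or 1.4, 4.4 and 4.38 with genes at 0 in a region at their lower bounds. Fezf2, a factor of corticofugal neurons, ranged from 8.9 to 18.2 (median 13.4) normalised CPM in BRN, 0.801 to 2.82 (median 1.98) in OB and at most 0.183 in BST. Dlx6 was at least 42.4-fold higher in BRN than in CBL, where all libraries were at 0 and the floor was 3 counts in the shallowest library. Nkx2-1, a factor of the ventral forebrain, was at least 4.37-fold higher than in CBL and 4.5-fold higher than in BST by the same floor.

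Diencephalic lists gave a mixed picture. Of 19 hypothalamic genes tested, out of 25, 12 were BRN-high, 14 were higher and 2 lower than in OB, 18 were higher than in CBL with the other 1 not called, and 14 were higher and 3 lower than in BST. The medians were 2.4, 5.64 and 1.82, or 2.11, 4.36 and 1.82 with genes at 0 at their bounds. Avp, Oxt and Hcrt had at most 13 counts over all libraries of a region. Sim1 had none in OB and CBL and Nkx2-1 none in CBL and BST, and both also belong to the forebrain patterning list. Such members passed the filter through their BRN levels, so the counts of this list describe these libraries and are no separate test. Cartpt, a feeding peptide precursor, ranged from 18.8 to 78.4 (median 32.7) normalised CPM in BRN, with a log2FC of 1.86 against OB, 6.74 against CBL and 1.82 against BST. Pomc, the melanocortin precursor, ranged from 3.44 to 12.3 (median 6.17), with a log2FC of 1.61 against OB, 2.45 against CBL and 1.69 against BST. Crh, the stress peptide, was lower than in BST (-1.53) and Trh, the thyrotropin releasing hormone precursor, lower than in OB (-2.68). The summed level of the list varied between BRN libraries, from 190.6 to 639.2 (median 350.8) CPM, with the highest in 12 h replicate 2. In OB the sum ranged from 223.9 to 356.8 (median 268.1) CPM, which overlaps with BRN. Of 7 habenular genes, 5 were higher and 2 lower than in OB, 4 higher than in CBL, and 3 higher and 1 lower than in BST. Gpr151, an orphan receptor of habenular neurons, ranged from 0 to 6.18 (median 2.71) in BRN and reached at most 0.824 in any region library. Of 13 thalamic genes, 4 were higher and 1 lower than in OB, 2 higher and 4 lower than in CBL, and 2 higher and 1 lower than in BST, with medians of -0.04, 0.16 and -0.1 beside -0.023, 0 and -0.029 for all genes. Of all genes 16.8% were higher than in CBL and 13% higher than in BST. Tcf7l2, a Wnt effector of thalamic neurons, had a log2FC of 1.72 against OB and 1.72 against BST, where the smaller series alone gave 1.04, not called.

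Genes of the midbrain and hindbrain were low in BRN chiefly against the regions that hold those parts. Of 33 patterning factors, 28 were lower than in BST and the other 5 were not called, 13 were lower and 3 higher than in CBL, and 10 were higher and 2 lower than in OB. The medians were -4.25, -0.45 and 2.5 in that order, or -3.7, -0.45 and 0.85 with genes at 0 on one side at their bounds. Hoxb5, which sets hindbrain position, ranged from 0 to 1.51 (median 0.113) normalised CPM in BRN and from 24 to 60.5 (median 44.1) in BST. Zic1, a zinc finger factor of cerebellar granule cells, was the BRN-low member, with 11.6 to 39.7 (median 24) in BRN and a log2FC of -2.47 against OB, -5.00 against CBL and -1.33 against BST. All 12 OB neuron genes were lower than in OB (median -4.72), and Eomes, a T-box factor of OB projection neurons, had a log2FC of -7.26. All 15 cerebellar neuron genes were lower than in CBL (median -5.4), and Cbln1, a synaptic protein of granule cells, ranged from 12.6 to 31.5 (median 20.4) in BRN and 710.3 to 956.7 (median 801.5) in CBL. Of 22 brainstem neuron genes, 20 were lower than in BST (median -3.76), among them Slc6a5, the glycine transporter of inhibitory neurons, with 0 to 18.4 (median 4.07) in BRN and 267.5 to 564.9 (median 504.2) in BST.

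The single brainstem list gene higher in BRN than in BST was Slc6a3, the dopamine transporter of midbrain neurons, and it was singled out after its values were seen. It ranged from 7.46 to 33.1 (median 18.8) normalised CPM in BRN and from 0 to 19.8 (median 0.164) in BST, with a log2FC of 5.72 and BRN higher in 15 of 16 mice. The 19.8 came from BST 0 h replicate 2, and the other 17 BST libraries were at 1.13 or lower. Without that library the log2FC was 6.38. Slc18a2, the vesicular monoamine transporter, ranged from 6.25 to 24.3 in BRN and from 32.3 to 66.6 in BST, the opposite order. Th, the enzyme that starts dopamine synthesis, overlapped between both, at 10.6 to 27.7 and 12 to 23.8. Where the cut between BRN and BST ran in each mouse was not measured.

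Of 37 neurotransmitter receptors coupled to G proteins, 12 were higher and 8 lower than in OB, 22 higher and 4 lower than in CBL, and 8 higher and 5 lower than in BST, with medians of 0.57, 1.5 and 0.02. Of all genes 12.8 and 12.2% were higher and lower than in OB, 16.8 and 14.6% than in CBL, and 13 and 13.7% than in BST. Chrm1, the M1 muscarinic receptor, ranged from 116.4 to 197.2 (median 141.7) normalised CPM in BRN, with a log2FC of 7.16 against CBL and 5.79 against BST. Htr6, a serotonin receptor, ranged from 0.391 to 9.11 (median 4.87) and was BRN-high, though BRN overlapped with every region. Of 32 ionotropic glutamate and GABA-A subunits, 4 were higher and 3 lower than in OB, 10 higher and 6 lower than in CBL, and 5 higher and 5 lower than in BST. Gria4, an AMPA receptor subunit, was BRN-low, with 44.7 to 106.4 (median 66.9) in BRN and a log2FC of -1.34 against OB, -2.74 against CBL and -1.60 against BST. Of 22 hormone and energy balance receptors, 9 were higher and 2 lower than in OB, 11 higher and 1 lower than in CBL, and 5 higher and 4 lower than in BST. Mchr1, the receptor of melanin-concentrating hormone, ranged from 17 to 35.3 (median 22.7) in BRN, with a log2FC of 1.45 against OB, 4.69 against CBL and 1.51 against BST. Ghsr, the ghrelin receptor, was lower than in BST, with 0 to 1.13 (median 0.218) in BRN and 0.715 to 2.76 (median 1.73) in BST. Glp1r, the receptor of glucagon-like peptide, was lower as well, with 0 to 1.42 (median 0) and 0.611 to 2.4 (median 1.67).

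Genes of synaptic plasticity were higher in BRN than in BST in most cases. Of 18 in the list, 14 were higher than in BST and the other 4 were not called, 9 were higher and 2 lower than in CBL, and 6 were higher than in OB, with medians of 1.68, 0.89 and 0.39. Dlgap3, a scaffold of corticostriatal synapses, ranged from 277 to 451.4 (median 366.5) normalised CPM in BRN, with a log2FC of 1.08 against OB, 1.81 against CBL and 2.23 against BST. All 16 BRN libraries were above all region libraries for Dlgap3. Camk4, a nuclear calcium-dependent kinase, lay between the regions, with 162.4 to 372.2 (median 231.9) in BRN, 479.1 to 733.8 (median 607.2) in CBL and 48.8 to 94.8 (median 53.9) in BST. Of 15 immediate early genes, 9 were higher than in CBL and 11 than in BST, while 4 were lower than in OB, and Egr1, a zinc finger factor induced by activity, ranged from 113.6 to 328.5 (median 185.9) in BRN.

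Glial, vascular and choroid plexus lists were less uniform. Beside them, 12.8% of all genes were higher and 12.2% lower than in OB. These shares were 16.8 and 14.6% for CBL, and 13 and 13.7% for BST. Of 12 myelin genes, 11 were higher than in OB, 3 higher than in CBL and 5 lower than in BST, with medians of 1.51, 0.57 and -0.92. Their summed level ranged from 7320 to 32500 (median 13900) CPM in BRN and 24500 to 29400 (median 26500) in BST, so the BRN libraries spread more widely. Of 12 astrocyte genes, Aqp4 was BRN-low, and 1 was higher and 1 lower than in OB, 2 higher and 4 lower than in CBL, and 2 higher and 3 lower than in BST. Aqp4, the water channel of astrocyte endfeet, ranged from 35.7 to 129.6 (median 94.4) in BRN, 338.4 to 463.1 (median 420.8) in CBL and 332.7 to 469 (median 402.1) in BST, with a log2FC of -1.18 against OB, -2.23 against CBL and -2.19 against BST. With the smaller series alone the Aqp4 value against OB was -0.98 and no longer called. Of 12 microglial genes, 10 were higher than in CBL and 5 than in BST, and 1 was lower than in OB, with medians of 1.7, 0.74 and 0.22. Trem2, a lipid receptor of microglia, had a log2FC of 2.26 against CBL and 1.59 against BST. Of 15 endothelial and mural genes, 2 were higher than in OB and 6 lower than in BST. The counts of vascular genes higher than in OB and of astrocyte genes higher than in each region lay near the shares of all genes. Of 13 choroid plexus genes, 11 were higher and 1 lower than in OB, 11 lower than in CBL and 5 lower than in BST. Their summed level ranged from 840 to 1970 CPM in BRN and 175.5 to 611.5 in OB. It varied widely in CBL, from 1110 to 7230, and in BST, from 586.4 to 5900, and both ranges overlap with BRN. The most abundant was Ttr, the thyroxine carrier transthyretin, at 478.1 to 1410 (median 921.1) in BRN. Of 8 meningeal genes 1 was lower than in CBL, and the summed level ran from 721 to 3180 (median 1700) CPM in BRN, highest in 12 h replicate 2. The 3 pituitary genes tested, out of 8, had medians of 0.07, 2.01 and -0.17 and were not called.

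**Figure D2:**
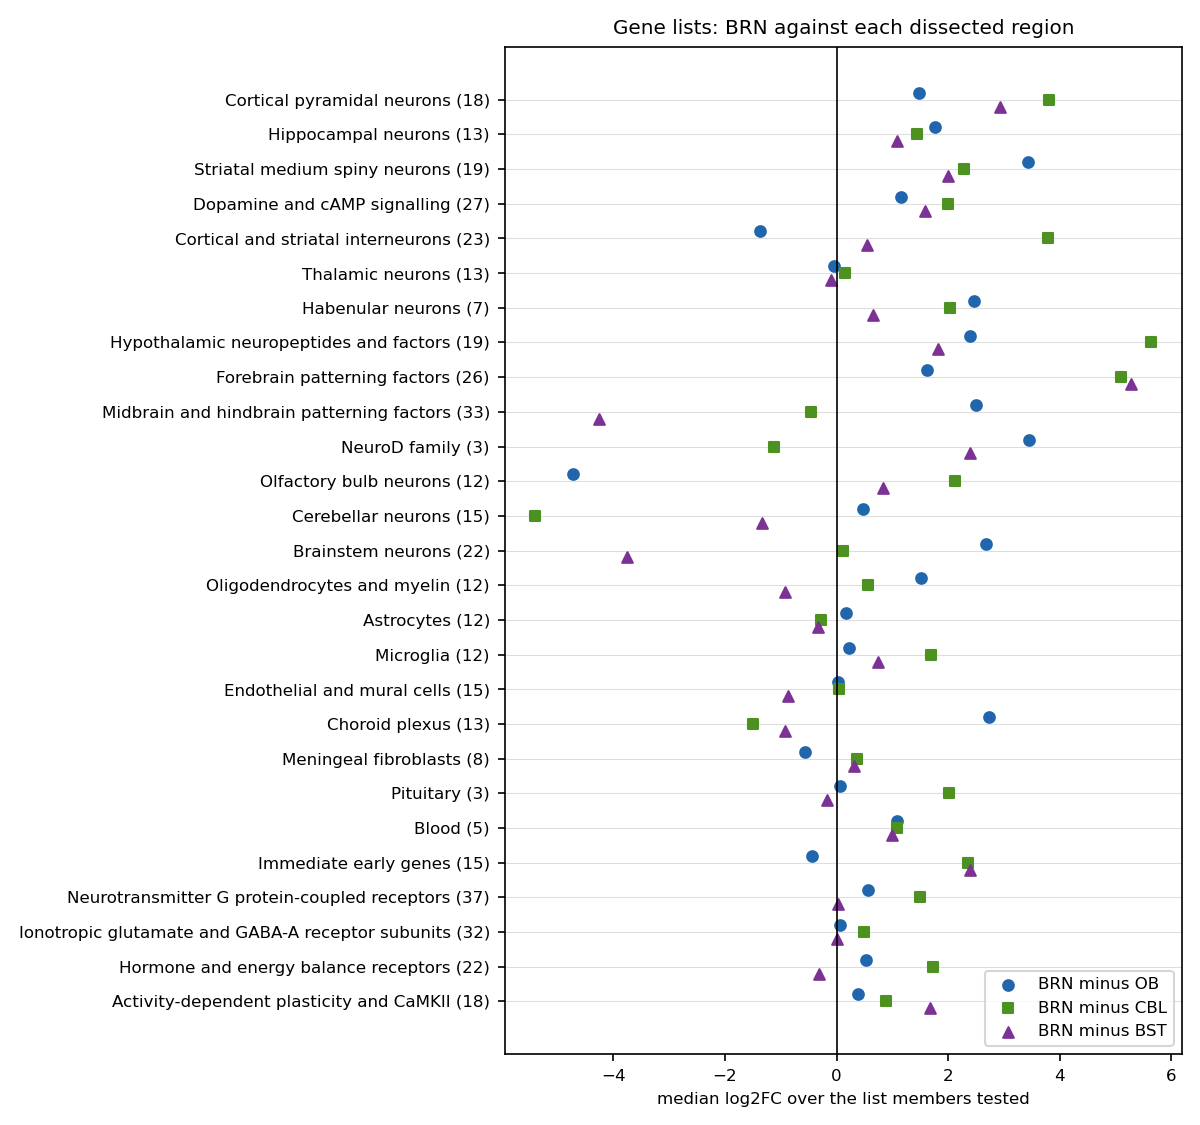
Median log2 fold change (BRN minus region, average over fasting times) of the 27 gene lists against OB, CBL and BST, with 1 point per list and region. The cerebellar list lies lowest against CBL at -5.4, the OB neuron list lowest against OB at -4.72, and the hypothalamic list stands at 5.64 against CBL. With genes at 0 in CBL at their bounds that list is at 4.36 and the forebrain patterning list at 4.4.

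The 12 named BRN-low genes were lower in BRN than in each region in 16 of 16 mice. Meis1, a homeobox factor, ranged from 1.5 to 15.6 (median 4.78) normalised CPM in BRN, with medians of 38.9 in OB, 39.7 in CBL and 23.3 in BST, and a log2FC of -3.08 against OB, -3.07 against CBL and -2.32 against BST. Its highest BRN value came from 18 h replicate 2, and without it the range was 1.5 to 6.68 (median 4.45). Lgr5, a receptor for R-spondins in Wnt signalling, ranged from 0 to 6.56 (median 1.96) in BRN and from 63.9 to 104.9 (median 85.5) in OB, with a log2FC of -5.23 against OB, -2.22 against CBL and -2.54 against BST. Gjd2, the connexin of electrical synapses between neurons, ranged from 0 to 9.05 (median 5.58) in BRN, with a log2FC of -3.03 against OB, -1.86 against CBL and -2.89 against BST. The Gjd2 libraries of BRN were below those of all regions, while Lgr5 overlapped with CBL. Plce1, a phospholipase C, ranged from 0 to 18.8 (median 13), with a log2FC of -1.80 against OB, -1.93 against CBL and -2.05 against BST, and Inpp4b, a phosphoinositide phosphatase, from 2.1 to 13.8 (median 7.79), with a log2FC of -1.99 against OB, -2.56 against CBL and -1.88 against BST. Akain1, an inhibitor of kinase anchoring, ranged from 0 to 10.6 (median 7.01) and without 18 h replicate 2 from 3.31 to 10.6 (median 7.03). Rab37, a GTPase of secretory vesicles, ranged from 4.49 to 19.3 (median 8.4), with a log2FC of -2.93 against OB, -1.85 against CBL and -2.66 against BST. Tmem255a, a membrane protein gene, ranged from 4.69 to 44.9 (median 22.3), with a log2FC of -2.20 against OB, -1.89 against CBL and -2.33 against BST. Without 18 h replicate 2 the BRN range was 5.02 to 18.8 (median 13.2) for Plce1 and 8.65 to 44.9 (median 23.8) for Tmem255a. Plce1, Inpp4b, Akain1, Rab37 and Tmem255a did not overlap with any region.

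Tll1, a metalloprotease of the tolloid family, was among the other 4 named BRN-low genes and ranged from 0 to 4.62 (median 0.984) normalised CPM in BRN, with a log2FC of -3.61 against OB, -4.52 against CBL and -2.33 against BST. Lancl3 ranged from 0 to 5.77 (median 1.58), Kctd12b from 0 to 6.1 (median 3.17) and Gulp1, an adaptor in the uptake of dying cells, from 0 to 4.49 (median 2.32). Their BRN libraries overlapped with 1 region each, Tll1 with BST, Lancl3 and Kctd12b with OB and Gulp1 with CBL. In BRN 18 h replicate 2, 8 of the 12 named genes had no count.

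Genes of pancreatic acinar cells were higher in BRN as well, and their list, like that of T lymphocytes, was added after the values were seen. Of 19 pancreatic genes tested, out of 20, 18 were higher than in OB, 17 than in CBL and 16 than in BST, and 16 were BRN-high, with medians of 5.6, 6.77 and 6.58, or 3.64, 3.29 and 3.48 with genes at 0 in a region at their bounds. Ctrb1, the chymotrypsinogen that was most abundant, ranged from 1.46 to 48.2 (median 9.15) normalised CPM in BRN and had 1 count in OB, 8 in CBL and 5 in BST, a pooled ratio of 343.7-fold (95% interval 174.4 to 796.1) over CBL. The summed levels in BRN were 16.5, 31.1 and 18 CPM at 0 h, 79.8, 27.9 and 124.8 at 2 h and 162.6 and 75.7 at 8 h. They were 116.1, 32.8 and 60.8 at 12 h, 60.1 and 50.7 at 18 h and 142.5, 215.9 and 42.3 at 22 h, while no region library was above 16.8. Because the list was chosen for its high BRN values and 6 of its genes had no count in any OB library, 9 in CBL and 6 in BST, its counts describe these libraries and are no separate test. The 0 h libraries were among the lowest. The source of these transcripts was not tested.

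Of 15 T lymphocyte genes 8 were tested, and of these 5 were higher and 1 lower than in OB, 5 higher and 1 lower than in CBL, and 5 higher and 3 lower than in BST, with medians of 1.67, 2.58 and 1.33. Cd4, Cd6, Trbc2 and Zap70 were BRN-high and Cd247 BRN-low. Cd4, a T cell coreceptor that some myeloid cells also carry, was the most abundant and ranged from 5.3 to 24.7 (median 12) normalised CPM in BRN, with a log2FC of 5.46 against OB, 5.71 against CBL and 7.11 against BST. Trbc2, a T cell receptor constant segment, ranged from 0 to 26.3 (median 8.69) in BRN and reached at most 0.7 in any region library. The defining genes Cd3d, Cd3e, Cd3g, Cd5, Cd8a, Cd8b1 and Trbc1 did not pass the filter, and Cd3e had no count in 11 of the 16 BRN libraries. The summed list was 33.2, 36.4 and 31.4 CPM at 0 h, 28.8, 25 and 34.1 at 2 h, 26.5 and 30.1 at 8 h, and 33.2, 68.4 and 23.7 at 12 h. It was 16.8 and 36.9 at 18 h and 43.1, 39.7 and 27.2 at 22 h, and all BRN libraries were above the highest region library, 8.4. Of 5 blood genes, Hbb-bs and Hba-a2 were BRN-high, and the list summed to 49.6 to 634.1 (median 239.9) CPM in BRN and 41.4 to 231.9 (median 84.2) in OB, which overlap. The part of blood or lymphocytes in the differences was not tested.

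Within single fasting times 2 or 3 BRN libraries stood against 3 of a region. Against OB, 1826 genes were higher and 1386 lower in BRN at 0 h, and 2942 and 2212 at 22 h. Against CBL the counts were 2717 and 1783 at 0 h and 3528 and 2517 at 22 h. Against BST they were 1963 and 1429 at 0 h and 2847 and 2304 at 22 h. The most genes lower in BRN were found at 12 h against OB (2707) and at 18 h against CBL (3367) and BST (3098). Genes called at all 6 times numbered 773 higher and 649 lower against OB, 1256 and 858 against CBL, and 809 and 623 against BST. Called at all 6 times against all 3 regions were 209 genes higher and 35 lower in BRN. By sign alone, called or not, 766 of the 937 BRN-high and 298 of the 578 BRN-low genes kept their direction in all 18 comparisons of a region at 1 time.

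The size of the difference changed with fasting time for many genes. The edgeR interaction test called 6152 genes (33.3%) against OB, 5411 (29.3%) against CBL and 5586 (30.2%) against BST, and 8471, 7970 and 7994 had an unadjusted p under 0.05. Between 0 and 22 h the BRN level rose relative to OB for 3246 of these and fell for 2906. Gene length went with this split, with a median of 2506 bases for those that rose and 6851 for those that fell, against 3856 for all genes. Against CBL the medians were 2558 and 6733 bases, and against BST 2329 and 6752. In BRN, genes under 1500 bases took 5.67, 6.26 and 6.09% of counts at 0 h and 11.4, 12.8 and 7.81% at 22 h, within a range of 5.67 to 13.6%. In OB, CBL and BST this share stayed within 5.24 to 8.31, 5.11 to 7.12 and 5.68 to 6.59%. The part of length, or of the RNA quality that it can follow, in these calls was not tested directly, and offsets for length gave 5492, 5348 and 5206 calls. The interaction test also used a spread shared by all organs. Correlations among BRN libraries went down to 0.877, against 0.975 or more within each region. The effect of the shared spread on the number of calls was not tested.

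The count of such genes depended on few libraries. All 0 h BRN libraries came from the smaller series, and within the larger one, which leaves 0 h out, 3065, 1315 and 858 genes were called. Leaving out BRN 18 h replicate 3 raised the counts to 10304, 9756 and 9892. With replicate 1 of every organ left out, 1380, 850 and 845 were called. No 0 h BRN library came from the larger series. The other 2 BRN libraries of the smaller series, 2 h replicate 3 and 12 h replicate 3, held 91 and 66.1 normalised CPM of Pde10a, under the 135.6 to 273.6 of 0 h. Genes under 1500 bases took 8.23 and 8.67% of their counts, above the 5.67 to 6.26% of 0 h. The part of library series in the interaction calls was not tested further.

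The genes with the smallest interaction p fell into a long group of 9279 to 21478 bases, lower in BRN after 0 h, and a shorter one of 616 to 2687 bases, higher in BRN after 0 h. Pde10a, the phosphodiesterase of medium spiny neurons, was at 273.6, 177.5 and 135.6 normalised CPM in BRN at 0 h, 97.2, 93.7 and 91 at 2 h and 40.2 to 79.5 later. Its log2FC against OB went from 2.48 at 0 h to 0.84 at 22 h (edgeR interaction adjusted p 5.19e-06, above OB in 15 of 16 mice). The 0 h libraries were above all later ones. Fat3, a giant cadherin, was at 86.6, 81.8 and 85.3 at 0 h and 21.1 to 71.1 later. Myh9, the heavy chain of nonmuscle myosin, was at 57.8, 58.6 and 85.3 at 0 h and 24 to 65.7 later, and Zzef1, a zinc finger protein gene, at 78, 52 and 77.2 and 29.4 to 64.3. Eml6, of a family of microtubule-binding proteins, was at 42.2, 35.9 and 44 at 0 h and 6.57 to 33.2 later, and its log2FC against BST went from 0.64 to -0.56. Adgrl2, the adhesion receptor latrophilin 2, was at 75.8, 56.2 and 69.6 at 0 h and 25 to 56.7 later, with a log2FC against BST of 0.73 at 0 h and -0.33 at 22 h.

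In the other direction, Atp5k, a small subunit of mitochondrial ATP synthase, was at 66.1, 90.4 and 84.5 normalised CPM in BRN at 0 h and 103.8 to 372.1 later. Its log2FC against BST went from -0.46 at 0 h to 1.5 at 22 h (edgeR interaction adjusted p 7.81e-06, above BST in 13 of 16 mice). Rpl7, a protein of the large ribosomal subunit, was at 24, 25.3 and 26.5 at 0 h and 28 to 84.4 later, and its log2FC against CBL went from -0.2 to 0.72. Rab24, a GTPase of the autophagy pathway, was at 65.3, 82.9 and 67 and 87 to 180.7, and Hyi, a hydroxypyruvate isomerase, at 7.29, 6.64 and 7.55 and 6.26 to 19.7.

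**Figure D3:**
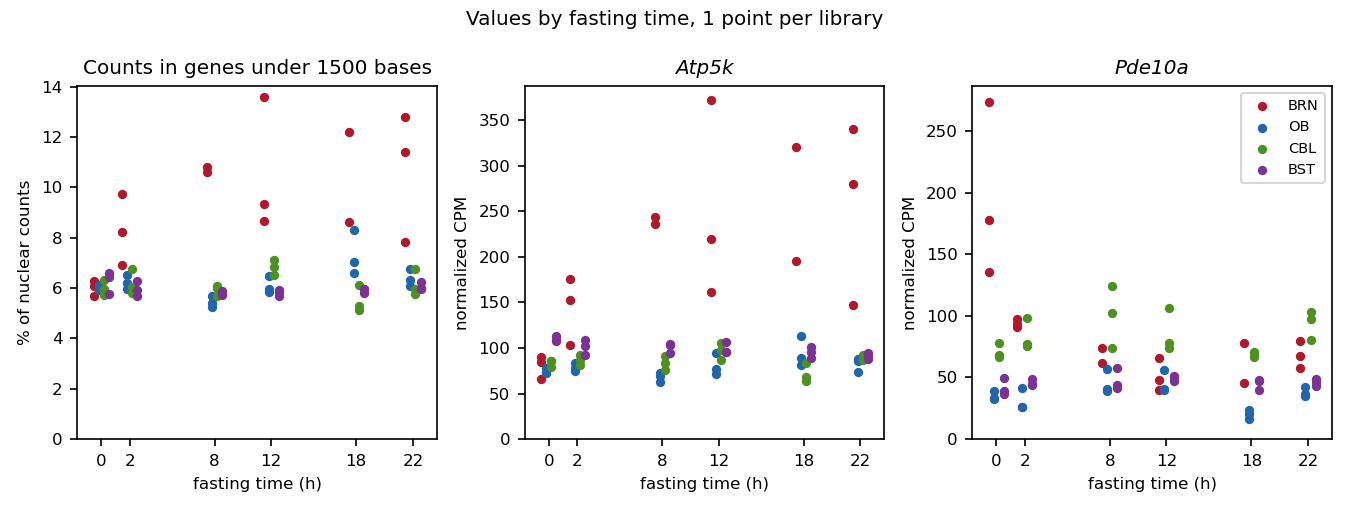
Percent of counts in genes under 1500 bases and normalised CPM of Atp5k and Pde10a by fasting time (h), with 1 point per library and a colour per organ. In BRN the short-gene share ran from 5.67 to 13.6%, and Pde10a lay at 273.6, 177.5 and 135.6 in the 0 h libraries.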

How the data were processed

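Reads were aligned by the authors with TopHat2 2.1.1 to GRCm38.p5, and the deposited values are counts per gene from HTSeq 0.9.1. From these, genes reaching a CPM equal to 10 counts in a median-size library in at least 3 of the 70 libraries were kept. They were fitted in edgeR 4.0.16 (R 4.3.3) by quasi-likelihood with TMM scaling and a mean per organ and fasting time. In each gene all organs shared an estimate of the spread, although BRN libraries correlated less closely with each other than those of a region did. What this does to the p-values and counts of calls was not tested. Contrasts were averaged over the 6 times, taken within each time, or tested together for a change with time, with Benjamini-Hochberg adjustment over all genes. The steps were run on simulated data in which all organs had the shared spread of the fit. There the interaction test against OB called 162 of 200 genes changed 4-fold in BRN at 22 h. Of 18096 unchanged genes it called 11. The wider spread of BRN was not simulated, so these runs cannot show its effect on the calls. Normalised CPM are counts scaled to library size after TMM. Gene lengths are the bases covered by any exon of a gene and came from a Gencode annotation of GRCm38.

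Genes were named by rule: the 12 BRN-high genes with the largest smallest log2FC and a mean CPM of at least 5, the 12 BRN-low genes with the most negative largest log2FC and a mean of at least 5 in each region, Neurod6, Drd1, list members, and the 4 genes of smallest adjusted p per interaction. Predicted genes were counted only, and some genes met by the rule are not reported here. Members and lists were chosen with earlier results of these data known. Counting intervals are exact 95% Poisson bounds, and they and the floor of 3 counts cover counting error only. Depth per library was 3045845 to 22071004 counts.

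Replicate numbers were taken to name the same mouse in all organs, since the study numbers its animals alike in each organ, and counts of mice rest on this. After group means were taken out, BRN and the region of the same mouse correlated at a mean of 0.0378 (OB), 0.0352 (CBL) and 0.0222 (BST) over 16 pairs. A fit with mouse as replicate block called 909 BRN-high and 575 BRN-low genes, and interactions for 5447 (OB), 4760 (CBL) and 5006 (BST). Alternatives covered DESeq2 1.42.0, its size factors, filters, length offsets, series, lanes, thresholds and single libraries.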

Additional observations from a re-analysis of the deposited data

Results flagged for a closer look

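The difference between BRN and a region changed with fasting time in an interaction test in edgeR for 6152 genes against OB, 5411 against CBL and 5586 against BST, of the 18496 tested. These are differences between groups labelled by fasting time, and no 0 h BRN library came from the larger library series.

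Single genes were picked out for the same reason. Against OB, Fat3, Pde10a, Zzef1 and Myh9 each had an edgeR adjusted p of 5.19e-06, with Pde10a going from a log2FC of 2.48 at 0 h to 0.84 at 22 h, higher in BRN in 15 of 16 mice. Against CBL, Rpl7, Pde10a and Rab24 had an edgeR adjusted p of 6.27e-06 and Hyi 8.76e-06, with Rpl7 going from -0.2 to 0.72 and BRN higher in 13 of 16 mice. Against BST, Adgrl2, Eml6, Atp5k and Rpl7 had an edgeR adjusted p of 7.81e-06, with Atp5k going from -0.46 to 1.5 and BRN higher in 13 of 16 mice.

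A library that the comparisons do not use, BRN 8 h replicate 3 with 130701 counts, held 21400 CPM of pancreatic acinar genes, of which Ctrb1 made 4820 CPM. The 16 libraries used held 16.5 to 216 normalised CPM of the same genes.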

How the results depend on the processing

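The log2FC values printed as averages over the fasting times kept their direction in the alternatives run for them, and 7 values of Aqp4, Prox1 and Tcf7l2 were no longer called, that of Tcf7l2 by its adjusted p and the others by fold change. Ratios, ranges and values within a fasting time were not run again.

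Some of these log2FC values moved by more than 1.5-fold. The smaller BRN library series held no used library of 8, 18 or 22 h, so its averages run over fewer fasting times. With the smaller BRN library series alone, Slc6a3 against BST went from 5.72 to 4.22, Tcf7l2 against BST from 1.72 to 1.04, and Tmem255a to -1.56 (OB), -1.17 (CBL) and -1.63 (BST). With replicate 3 left out, Plce1 against OB went from -1.80 to -3.39, Neurod1 against CBL from -5.73 to -7.02 and Cd4 against BST from 7.11 to 8.10. Lgr5 went to -6.45 (OB), -3.44 (CBL) and -3.71 (BST), and Gjd2 to -4.12, -2.96 and -3.97. Without BRN 18 h replicate 3, Plce1 went to -3.47 against CBL and -3.58 against BST. With lanes 3 to 5 alone, which leave 18 h out of BRN, Tll1 went to -5.16 (OB), -5.99 (CBL) and -3.79 (BST). With replicate 1 left out, Eomes against OB went from -7.26 to -8.73. Each value is the furthest among the alternatives. With only replicate 2 left at 18 h, Plce1, Lgr5, Gjd2 and Neurod1 had no BRN count at that time. The only 8 h BRN library left without replicate 1 had no Eomes count. The averages of these genes in those fits have no finite estimate.

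Counts moved by more than 1.5 times in these cases. With no fold threshold, 6752 genes were higher and 7200 lower than in OB, 7259 and 7383 than in CBL, 6869 and 7222 than in BST, with 3614 BRN-high and 3480 BRN-low. With an absolute log2FC over 2 these were 830 and 693, 1251 and 857, 739 and 701, and 277 and 95. A filter 10 times as strict gave 1380 and 1046, 1840 and 1318, 1493 and 1145, and 520 and 158, since fewer genes were tested. With no filter, 3417 genes were lower than in OB and 3805 than in BST.

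With all 18 BRN libraries the interactions numbered 3101 (OB), 2393 (CBL) and 2826 (BST). The larger BRN library series alone gave 3065, 1315 and 858 interactions and 1086 genes lower than BST at each of its times, with 0 h missing. The smaller series alone, with 5 BRN libraries, gave 514 BRN-high and 558 BRN-low genes, of which 413 and 219 were among the 937 and 578, so most BRN-low calls were not shared.

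Leaving out replicates in turn gave these ranges: lower than OB 1877 to 3588, lower than BST 2255 to 3846, BRN-low 432 to 1549, higher than OB at every time 515 to 789, and interactions 1380 to 10304 (OB), 850 to 9756 (CBL) and 845 to 9892 (BST). The lone library left at a time is assumed to vary like the other groups. Where no construction is named, the cause was not tested.

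Mouse as replicate block changed no call among these averaged values, gave 905 of the 937 and 558 of the 578 genes, and moved no count by more than 1.5 times. DESeq2 gave 907 BRN-high and 562 BRN-low genes, of which 880 and 519 were among the 937 and 578. Lanes 3 to 5 alone (806 and 389), and leaving out CBL 0 h replicate 2 (938 and 573) or BST 0 h replicate 2 (939 and 570), were chosen after seeing the data. At 18 h 1032 of the genes had no count in any BRN library.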

Other observations

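The BRN library of 18 h replicate 1, which entered no comparison, held 279848 counts in 5483 genes. In the left-out 8 h replicate 3, counts fell in 5310 genes, and the 10 most abundant took 24.67% of all counts, against 4.608 to 17.5% in the 16 libraries used. CBL 0 h replicate 2 and BST 0 h replicate 2 differed from other libraries of their organ in genes of neighbouring dissections, with 19.8 normalised CPM of Slc6a3 in the latter.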
